A study of Mus musculus with 28 samples.

Results

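The genes described here are the collagens, laminin chains and integrin chains of the mouse, with the lysyl hydroxylases (Plod genes) that modify collagen. They were picked by a rule on symbols, as collagen chains (Col with a type and a chain number), laminin alpha, beta and gamma chains (Lama, Lamb, Lamc), integrin alpha and beta chains (Itga, Itgb) and Plod genes. This choice was made with earlier results of these data known. The rule found 84 genes, namely 44 collagens, 11 laminin chains, 26 integrin chains and 3 Plod genes, and all 84 were listed in each of the 3 expression tables (56691 genes for the bulge, 47243 for hair germ SHERRY2 and 57010 for hair germ SMART-seq). RNA came from hair follicle stem cells sorted by flow cytometry from mouse skin at postnatal day 69, from Alkbh5 conditional knockout (cKO) mice and wild-type (WT) mice, with 2 mice per genotype in each table. Bulge cells and one set of hair germ cells were sequenced by SHERRY2, which tags RNA/cDNA hybrids with a transposase, and another set of hair germ cells by SMART-seq, which amplifies full-length cDNA. The input was 200 ng of RNA for each bulge library and 40 ng for each hair germ library. Alkbh5 encodes a demethylase that takes m6A off RNA. The sources used here do not give the Cre driver, the age at deletion, the strain, the sorting markers or any treatment. The 16 m6A libraries of the series were not used here.

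Collagens and laminins are secreted by cells and assemble into the matrix outside them. Sheet-forming type IV collagen and the laminins build the basement membrane beneath an epithelium, and basal keratinocytes grip it through hemidesmosomes made of integrin alpha 6 beta 4 and the transmembrane collagen XVII, with laminin-332 below them and anchoring fibrils of collagen VII beneath. In the hair follicle, collagen XVII is known for its part in keeping bulge stem cells in place, and integrins link the cells to the matrix and pass signals inward. Lysyl hydroxylases add hydroxyl groups to lysines of collagen chains in the endoplasmic reticulum, a step that later cross-links and sugar attachment depend on.

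Promoter windows of RefSeq (GRCm38.p6, 250 bases before to 50 after the start of the gene) were matched by symbol for 60 of the 84 genes, and 4 of them are shown. Col4a1 and Col4a2, which encode the chains of the common form of type IV collagen, start next to each other on opposite strands. Their windows, chr8:11312777-11313076 on the minus strand and chr8:11312555-11312854 on the plus strand, share 78 bases, shown in capitals; the pair is shown because its members had the same direction of difference in the bulge.
Col4a1: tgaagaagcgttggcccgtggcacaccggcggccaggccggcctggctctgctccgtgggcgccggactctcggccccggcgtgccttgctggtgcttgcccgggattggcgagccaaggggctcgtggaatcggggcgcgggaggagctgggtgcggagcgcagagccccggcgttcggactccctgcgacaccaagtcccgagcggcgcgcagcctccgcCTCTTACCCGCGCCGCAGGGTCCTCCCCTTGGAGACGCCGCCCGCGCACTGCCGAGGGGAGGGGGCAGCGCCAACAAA
Col4a2: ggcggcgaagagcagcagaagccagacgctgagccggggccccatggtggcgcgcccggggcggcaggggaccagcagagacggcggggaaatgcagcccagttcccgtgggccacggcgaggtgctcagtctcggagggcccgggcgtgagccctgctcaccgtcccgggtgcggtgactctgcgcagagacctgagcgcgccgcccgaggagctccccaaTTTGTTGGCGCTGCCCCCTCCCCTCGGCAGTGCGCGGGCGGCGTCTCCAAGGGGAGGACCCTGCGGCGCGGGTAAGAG
The window of Col23a1, chr11:51289670-51289969 on the plus strand, is shown because this gene was higher in bulge cKO cells. Capitals mark its single match to the GC box letters GGGCGG, read on both strands.
Col23a1: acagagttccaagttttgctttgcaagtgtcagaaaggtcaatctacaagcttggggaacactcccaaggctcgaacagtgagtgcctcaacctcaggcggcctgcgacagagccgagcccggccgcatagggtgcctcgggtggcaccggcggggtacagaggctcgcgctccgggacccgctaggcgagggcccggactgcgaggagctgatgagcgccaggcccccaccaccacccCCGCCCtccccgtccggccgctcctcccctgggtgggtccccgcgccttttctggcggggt
The window of Col17a1, chr19:47691993-47692292 on the minus strand, belongs to the member with the highest level in every library. Capitals mark its 2 matches to the TATA letters TATAAA, read on both strands.
Col17a1: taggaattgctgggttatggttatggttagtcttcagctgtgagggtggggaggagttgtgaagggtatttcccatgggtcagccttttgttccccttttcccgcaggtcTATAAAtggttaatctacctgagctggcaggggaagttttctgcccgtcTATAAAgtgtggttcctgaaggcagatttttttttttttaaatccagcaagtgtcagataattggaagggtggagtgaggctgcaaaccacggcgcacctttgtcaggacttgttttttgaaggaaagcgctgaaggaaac
Of 32851 promoter windows of the same length, 35.7% held GGGCGG and 13.6% held TATAAA on either strand; of the 66 windows of the members, 36 held GGGCGG and 6 held TATAAA. The window of Col4a1 held 1 match to GGGCGG, that of Col4a2 held 3, and that of Col17a1 held 0. These matches describe the letters and were not tested as binding sites.

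Bulge libraries held 14676168 to 21187283 reads in genes, hair germ SMART-seq libraries 9001396 to 14416601 and hair germ SHERRY2 libraries 488648 to 2317407. The keratin genes Krt5, Krt14 and Krt15 were among the epithelial markers that were high in every library. Krt14 was at 4456 to 5757 FPKM (fragments per kilobase of exon, scaled to library size) in the bulge. Of the 10 epithelial markers, 2 had a positive and 8 a negative difference (cKO over WT) in the bulge. There 0 passed in edgeR, and DESeq2 called 1, Krt15. Of the 10 genes of the fibroblast and dermal papilla list, Twist2 and Sox2 had 0 reads in the bulge. From that list 6 and 8 genes had reads in the bulge cKO libraries and 8 and 5 in the WT libraries. All 10 had reads in every hair germ SHERRY2 library, and 6 to 8 had reads in SMART-seq libraries. Alkbh5 was at 0.74 and 0.42 FPKM in the bulge cKO libraries and at 16.5 and 15.4 FPKM in the WT libraries. In hair germ SHERRY2 it was at 2.96 and 1.15 RPKM (reads per kilobase of exon, scaled to library size) in cKO and at 10.5 and 10.2 RPKM in WT. In SMART-seq it was at 14.2 and 17.6 RPKM in the libraries labelled cKO and at 22.1 and 15.9 RPKM in WT, so the groups overlapped and the genotype labels of these libraries were not borne out by the targeted gene. In hair germ SHERRY2, odorant and vomeronasal receptor genes, which skin has no known use for, had a median of 1.29 and 0.561 RPKM in the cKO libraries and 0.827 and 2.04 RPKM in the WT libraries, against a median of 0 in every library of the other tables. The medians are over unlike sets, of 307 receptor genes in hair germ SHERRY2, 1474 in the bulge and 1376 in SMART-seq. By reads of Xist and Ddx3y, WT mouse 2 of the bulge was male and the other bulge mice female. In SMART-seq, mouse 1 of each genotype was female and mouse 2 male. Hair germ SHERRY2 libraries had 32 and 384 Xist reads in cKO and 470 and 105 in WT, and Ddx3y had 33 reads in cKO mouse 1 and 0 in the others, which set that mouse apart. Each p-value below measures the spread between 2 mice per genotype, except in fits without 1 library: there the lone mouse of a genotype has no spread of its own and is assumed to vary like the mice of the other genotype.

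In bulge cKO cells, 3 of the 84 genes rose: Plod2, the lysyl hydroxylase that acts on the telopeptides of fibrillar collagens, Col2a1, the collagen of cartilage, and Col23a1, a transmembrane collagen. None fell in the main edgeR fit, while DESeq2 called 8 members (5 higher and 3 lower), against 4.42% of the 26954 genes it was run on. These were 3 of the 63 members with enough reads to be tested, in edgeR's quasi-likelihood test with Benjamini-Hochberg adjustment over all genes at 0.05, against 3.04% of all 15672 genes tested (1.44% higher in cKO and 1.6% lower). A further 21 members were not tested. At an unadjusted p under 0.05 there were 15 of the 63 members, against 18.9% of all genes.

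Plod2 was at 4.97 and 5.22 FPKM in cKO and at 0.22 and 0.19 FPKM in WT, from 409 and 558 reads in cKO libraries and 25 and 15 reads in WT libraries. The lower cKO library was far above both WT libraries, and the groups did not overlap. The fitted log2 fold change was 4.45 (SE 0.28, adjusted p = 0.00067, edgeR), a 21.8-fold higher level. Plod2 lies on chromosome 9 from 92424276 to 92490481 on the plus strand, as the bulge table gives positions without naming a build. It overlaps B430319G15Rik on the opposite strand, which had 27 and 26 reads in cKO and 4 and 0 reads in WT, and the strand setting of the counting is not given, so reads of the overlap cannot be told apart.

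Col2a1, which encodes the single chain of type II collagen, was at 1.33 and 1.68 FPKM in cKO and at 0.05 and 0.06 FPKM in WT, from 188 and 307 reads in cKO and 10 and 8 reads in WT. Both cKO libraries were above both WT libraries, at a level below that of Col4a1 and above that of Col4a3 in the same libraries. The log2 fold change was 4.59 (SE 0.39, adjusted p = 0.00252, edgeR), a 24.1-fold higher level. Col2a1 lies on chromosome 15 from 97873483 to 97902576 on the minus strand in the same table. Of the cartilage markers, Acan, the main cartilage proteoglycan, had 0 reads in all 4 bulge libraries. Matn1 had 0 and 5 reads in cKO and 0 and 0 in WT. Comp had 0 reads in both cKO libraries and 4 and 6 in WT. The collagen chain Col9a1, also of cartilage, had 0 reads in cKO and 1 and 0 in WT, and Sox5 and Sox6, factors that act with Sox9 in cartilage, were tested and did not pass. The summed level of the 6 cartilage markers was 73.9 and 88.3 counts scaled to library size (CPM) in cKO and 75.0 and 52.5 CPM in WT, nearly all of it Sox6.

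Col23a1 was at 43.3 and 50.6 FPKM in cKO and at 16.0 and 12.3 FPKM in WT. Every cKO library was above every WT library, and in the cKO mean only Col17a1 and Col7a1 were higher among the collagens. The log2 fold change was 1.55 (SE 0.19, adjusted p = 0.00904, edgeR), a 2.94-fold higher level. Col23a1 lies on chromosome 11 from 51180747 to 51474745 on the plus strand in the bulge table. Positions of that table do not match those of the promoter windows (GRCm38.p6), so the windows cannot be placed on them. No other gene of the bulge table overlaps Col23a1. All 3 genes passed in every fit that left out 1 library, the male WT mouse 2 included, with adjusted p-values of at most 0.0041 for Plod2, 0.0113 for Col2a1 and 0.0213 for Col23a1 (edgeR).

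**Figure D1:**
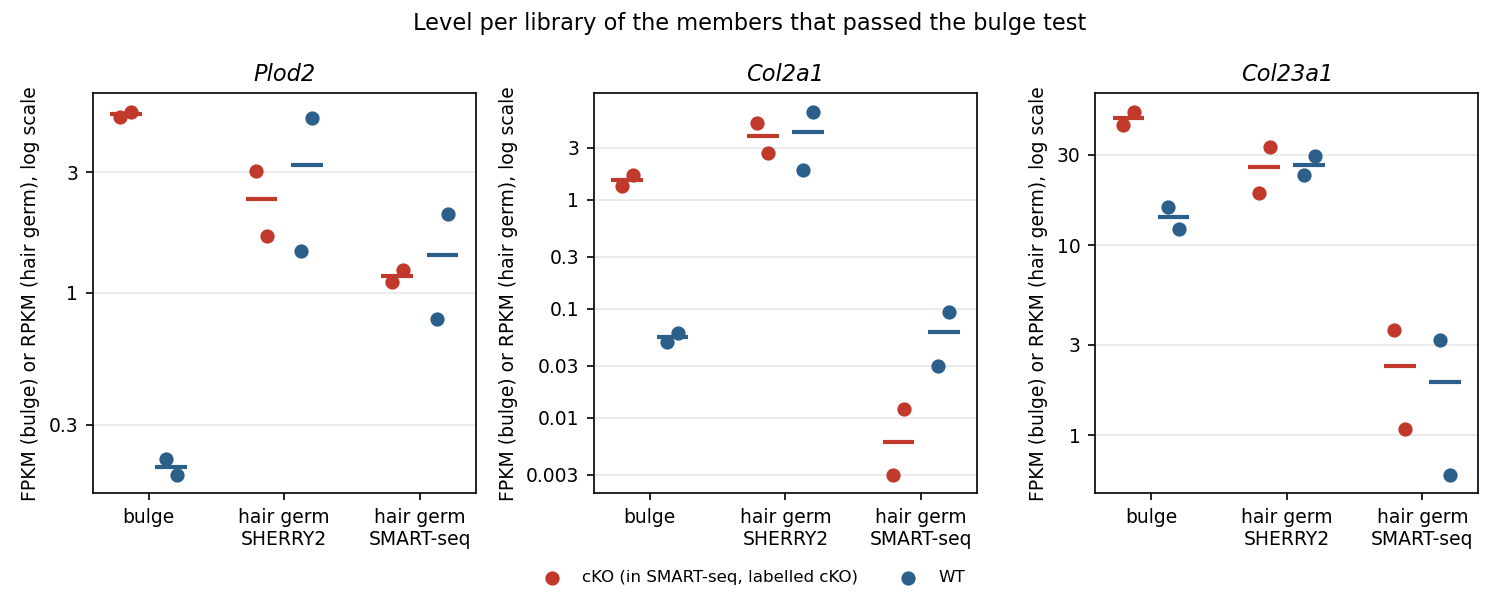
Level per library of Plod2, Col2a1 and Col23a1, in FPKM for the bulge and RPKM for hair germ, on a log axis. Each point is 1 mouse, the bar is the mean of 2, and the 0 of Col2a1 in SMART-seq is drawn at 0.003. The bulge cKO points lie above the WT points in each panel (for Plod2 at 4.97 and 5.22 FPKM against 0.22 and 0.19 FPKM), and the hair germ groups overlap except for Col2a1 in SMART-seq.

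Plod1 and Plod3 did not pass in the bulge. Plod3, which also attaches glucose to collagen, was at 16.0 and 18.2 FPKM in cKO and 16.0 and 11.9 FPKM in WT (log2 fold change 0.11, SE 0.19, adjusted p = 0.808, edgeR). Plod1, which acts on the helical part of collagen, was at 5.04 and 3.69 FPKM in cKO and 4.52 and 3.28 FPKM in WT (log2 fold change -0.02, SE 0.24, adjusted p = 0.976). The genotypes overlapped for both genes. Plod3 overlaps Znhit1 on the opposite strand, with 464 and 526 reads in cKO and 694 and 480 in WT. In WT bulge cells Plod2 was thus the lowest of the 3 hydroxylase genes per length, and in cKO cells it stood at about the level of Plod1. Of 20 tested genes of the other collagen-processing enzymes and chaperones, 0 passed in edgeR or in DESeq2 and 1 had an unadjusted p under 0.05; 12 had a positive and 8 a negative difference, and the median log2 fold change was 0.05 beside -0.01 over all genes. Serpinh1, the collagen chaperone of the endoplasmic reticulum, was at 57.9 and 47.2 FPKM in cKO and 51.9 and 37.9 FPKM in WT, and P4ha2, a prolyl hydroxylase, at 1.21 and 1.14 FPKM in cKO and 1.63 and 1.31 FPKM in WT. Lox, a cross-linking oxidase, had 2 and 3 reads in cKO and 5 and 0 in WT.

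**Figure D2:**
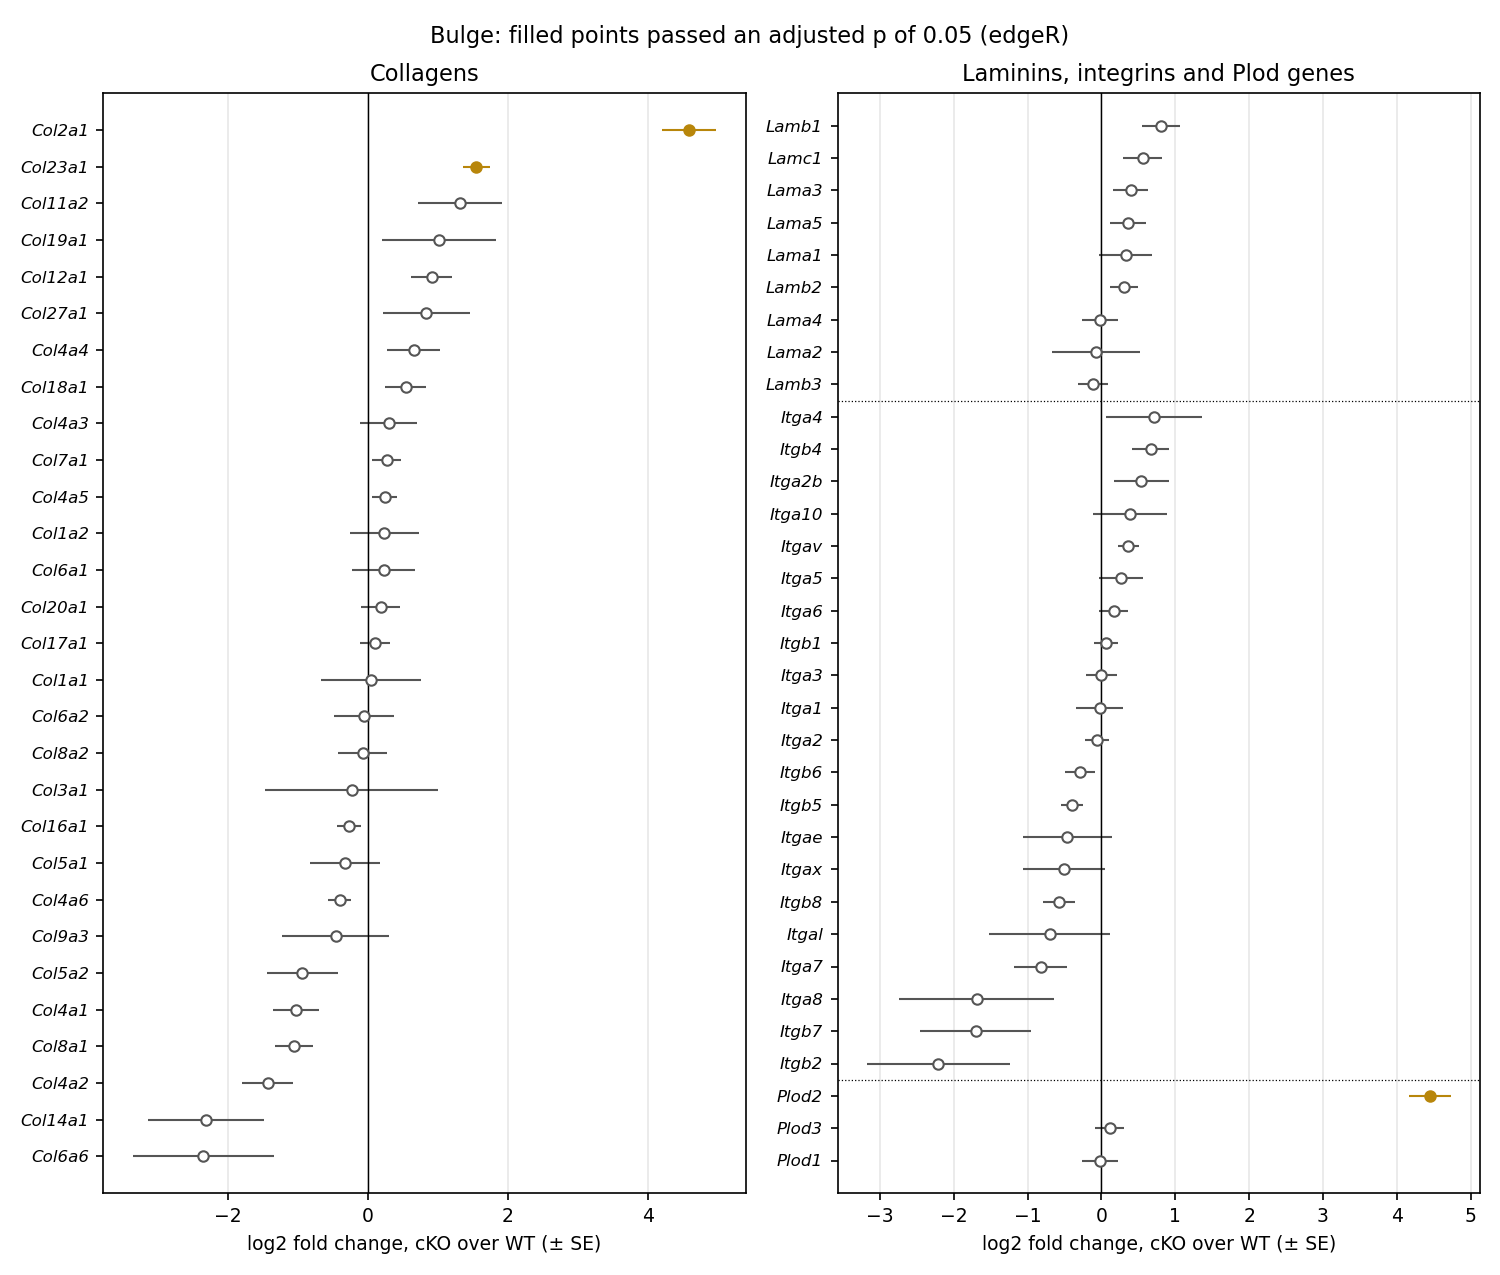
Fitted log2 fold change, cKO over WT, with an SE derived from the F statistic of the test, for 62 of the members tested in the bulge. Filled points passed an adjusted p of 0.05 in edgeR. Col2a1 (4.59), Plod2 (4.45) and Col23a1 (1.55) are the filled points, and most others lie within 1 unit of 0.

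The bulk of the matrix and receptor RNA of the bulge came from few genes. The 10 members with the highest mean held 83.4% of the summed FPKM of all 84, and the 5 genes over 100 FPKM were Col17a1, Itgb4, Lamb3, Itga6 and Itgb1. A further 18 genes lay between 10 and 100 FPKM, 15 between 1 and 10 and 46 under 1, of which Col26a1 and Col28a1 had no reads. Col17a1, the hemidesmosomal collagen XVII, was at 1008 and 979 FPKM in cKO and 878 and 753 FPKM in WT, which is 45.4 and 46.4% of the members' summed FPKM in cKO and 46.6 and 49.1% in WT. In FPKM both cKO libraries were above both WT libraries, but the fit, which divides by TMM scaling factors of 1.06 and 1.06 in cKO and 0.925 and 0.960 in WT, gave a log2 fold change of only 0.11 (SE 0.21, adjusted p = 0.834, edgeR). Its sign turned without WT mouse 2 (-0.03). FPKM set side by side in the bulge therefore run somewhat higher in cKO than the fitted differences.

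Integrin beta 4, the partner of alpha 6 in the hemidesmosome, was the integrin chain with the highest level and with the largest positive difference among those over 10 FPKM. Itgb4 was at 189 and 206 FPKM in cKO and at 135 and 85.4 FPKM in WT. The groups did not overlap, but WT mouse 2 was well below WT mouse 1. The log2 fold change was 0.67 (SE 0.26, adjusted p = 0.209, main edgeR fit) and missed the threshold, while DESeq2 on the same counts gave an adjusted p of 0.0321. With no filter on low counts Itgb4 passed in edgeR (adjusted p = 0.0455). In edgeR, Itgb4 differed by 1.06 without WT mouse 1 and by 0.34 without WT mouse 2, the male. It differed by 0.76 without cKO mouse 1 and by 0.59 without cKO mouse 2. Its partner Itga6 was at 110 and 117 FPKM in cKO and 99.3 and 79.5 FPKM in WT (log2 fold change 0.17, SE 0.20, adjusted p = 0.718). The direction of Itga6 turned without WT mouse 2 (-0.02). Itgb1, the common partner of many alpha chains, was at 111 and 105 FPKM in cKO and 93.0 and 90.9 FPKM in WT (0.06, SE 0.16, adjusted p = 0.876). Itga3, which pairs with beta 1 to bind laminin-332, was at 65.1 and 71.2 FPKM in cKO and 70.5 and 50.1 FPKM in WT. Its groups overlapped and its fitted difference was close to 0, with a sign that changed with the scaling.

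The laminin-332 chain Lamb3 was at 115 and 103 FPKM in cKO and 117 and 91.8 FPKM in WT, and Lama3 at 44.8 and 36.2 FPKM in cKO and 32.7 and 21.7 FPKM in WT. In FPKM both cKO libraries were above both WT libraries for Lama3, and the groups overlapped for Lamb3. Neither gene passed in the main edgeR fit or in DESeq2 or had an unadjusted p under 0.05 in either. The log2 fold changes were 0.40 for Lama3 (SE 0.24, adjusted p = 0.424, edgeR) and -0.11 for Lamb3 (SE 0.20, adjusted p = 0.817). Lama3 had an unadjusted p of 0.0475 with no filter on low counts and 0.0336 with a replicate block (edgeR), and passed in neither fit. Lama5, the alpha chain of laminin-511 and laminin-521, was at 39.4 and 35.4 FPKM in cKO and 31.9 and 19.6 FPKM in WT (0.36, adjusted p = 0.490). Among the 10 tested laminin chains, 0 passed in edgeR or in DESeq2, 1 had an unadjusted p under 0.05, 7 had a positive difference and 3 a negative one, with a median of 0.34 beside -0.01 over all genes, and Lamb1 had the largest, 0.80 (SE 0.26, adjusted p = 0.145). Lamb1, a beta chain widely used in embryonic and vascular basement membranes, was at 2.79 and 1.83 FPKM in cKO and 1.12 and 1.23 FPKM in WT, without overlap, and passed without cKO mouse 2 (adjusted p = 0.0128, edgeR). Col7a1, the anchoring fibril collagen, was at 78.3 and 59.6 FPKM in cKO and 54.2 and 47.1 FPKM in WT (0.27, SE 0.20, adjusted p = 0.535). Col16a1, a fibril-associated collagen found near the dermal-epidermal junction, was at 39.9 and 45.4 FPKM in cKO and 49.4 and 41.1 FPKM in WT, with overlapping groups. Of 20 tested hemidesmosome and focal adhesion genes, among them the linkers Plec and Dst, 0 passed in edgeR, 1 passed in DESeq2, 2 had an unadjusted p under 0.05, and 15 had a positive difference.

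**Figure D3:**
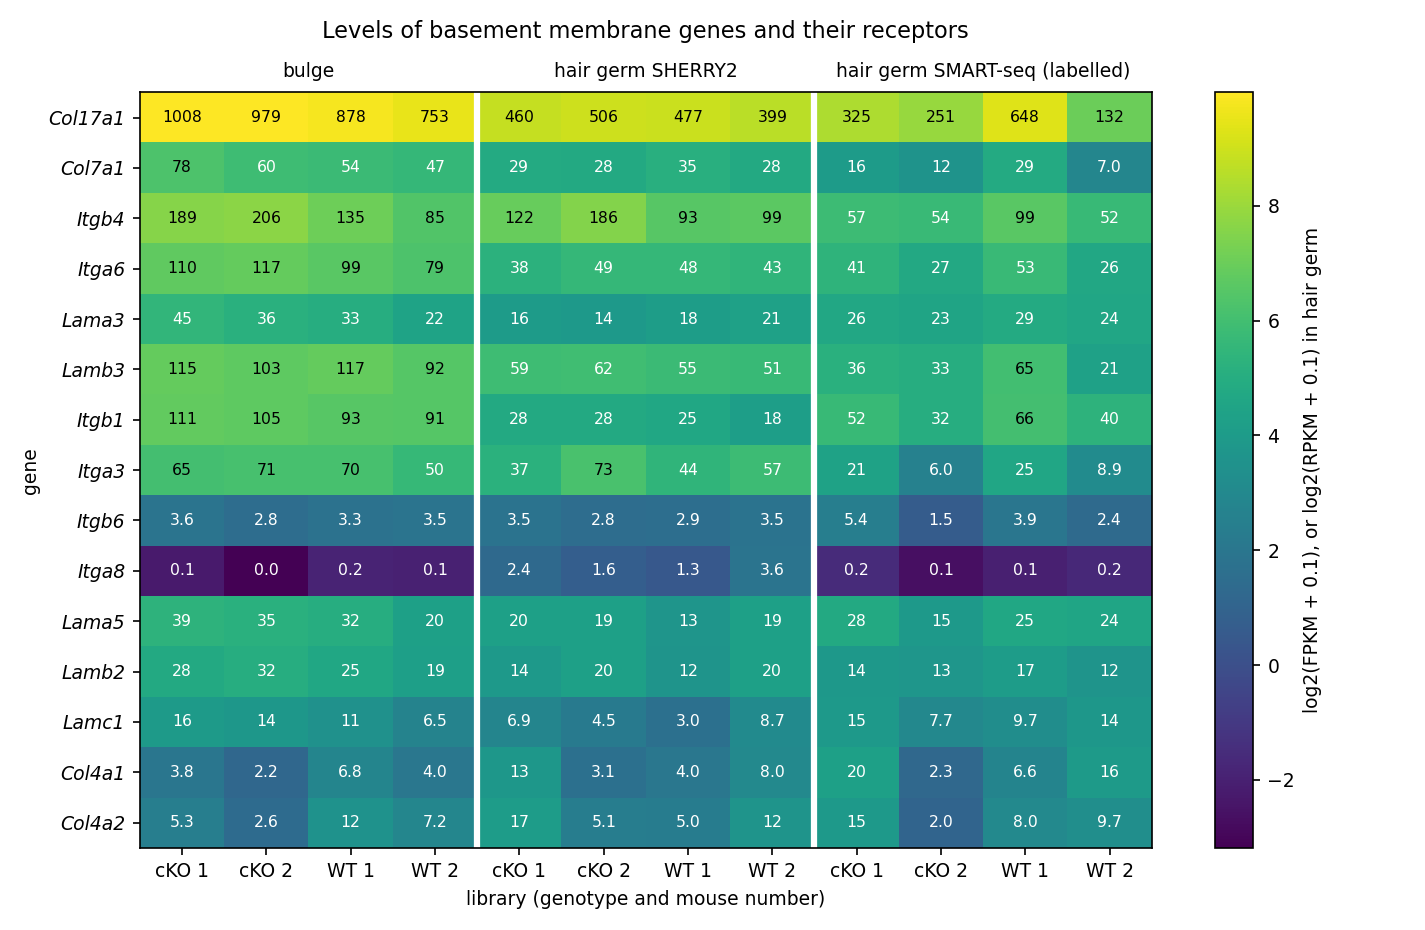
FPKM (bulge) or RPKM (hair germ) of basement membrane collagens and laminins and their integrin receptors in each of the 12 libraries, with colour on a log2 scale. Col17a1 is the highest member in all 12 libraries (1008 and 979 FPKM in bulge cKO, 878 and 753 FPKM in bulge WT), and WT mouse 1 of SMART-seq (648 RPKM) stands above the other SMART-seq libraries.

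Of the 6 type IV collagen chains, 3 had a positive and 3 a negative difference in the bulge. In the main edgeR fit 0 passed and 3 had an unadjusted p under 0.05, and 2 passed in DESeq2. Col4a2 was at 5.34 and 2.58 FPKM in cKO and at 11.5 and 7.25 FPKM in WT. Col4a1 was at 3.82 and 2.25 FPKM in cKO and at 6.83 and 3.98 FPKM in WT. Every cKO library was below every WT library for both genes. The log2 fold changes were -1.43 for Col4a2 (SE 0.36, adjusted p = 0.0809) and -1.02 for Col4a1 (SE 0.33, adjusted p = 0.147), so neither passed in the main edgeR fit. DESeq2 on the same counts gave adjusted p-values of 0.000494 for Col4a2 and 0.0279 for Col4a1. Both also passed in edgeR with no filter on low counts (adjusted p = 1.4e-09 for Col4a2 and 0.000266 for Col4a1). With a replicate block on the mouse numbers both passed too (0.0102 and 0.0325, edgeR). The share of all genes called was 5.75% with no filter and 3.23% with the block. With edgeR, Col4a2 passed without cKO mouse 1 (adjusted p = 2.78e-10) and without cKO mouse 2 (0.00754), and Col4a1 without cKO mouse 1 (2.68e-05). In such fits 1 mouse stands for its genotype, and the share of all genes called was 9.53% without cKO mouse 1, 4.45% without cKO mouse 2, 2.8% without WT mouse 1 and 1.28% without WT mouse 2. The genes, which share the promoter stretch printed above, also overlap by their annotated starts on opposite strands in the bulge table (Col4a1 from 11248423 to 11362826 and Col4a2 from 11362805 to 11499287 on chromosome 8), so reads of the overlap cannot be told apart. These positions do not match those of the promoter windows, which are of GRCm38.p6. Col4a5, of the chain pair found in epidermal basement membrane, was at 15.09 and 13.63 FPKM in cKO and 12.03 and 9.4 FPKM in WT (0.25, adjusted p = 0.518), and its partner Col4a6 at 15.6 and 16.1 FPKM in cKO and 20.3 and 16.7 FPKM in WT (-0.40, adjusted p = 0.240). Col8a1, a short-chain collagen, was at 1.32 and 0.97 FPKM in cKO and 2.27 and 1.93 FPKM in WT (-1.05, SE 0.27, adjusted p = 0.082). Col12a1, a fibril-associated collagen, was at 9.65 and 6.53 FPKM in cKO and 4.78 and 2.79 FPKM in WT (0.91, SE 0.29, adjusted p = 0.142). Neither overlapped between genotypes. With no filter on low counts both passed in edgeR (adjusted p = 0.0113 for Col8a1 and 0.000114 for Col12a1). With the replicate block Col12a1 passed (adjusted p = 0.0277, edgeR) and Col8a1 did not (0.0702). Col8a1 passed without cKO mouse 1 (adjusted p = 0.0062), and Col12a1 passed without cKO mouse 2 (8.98e-05) and without WT mouse 1 (0.0429, edgeR), under the same limit; DESeq2 called both. In the bulge, 30 of the 63 tested members had groups that did not overlap in TMM-scaled CPM, against 50.9% of all genes tested.

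The remaining large differences in the bulge were those of genes with few reads. Col6a6, a collagen VI chain, had 20 and 2 reads in cKO and 34 and 69 in WT (-2.35, SE 1.01, adjusted p = 0.264). Col14a1, a fibril-associated collagen, had 10 and 3 reads in cKO and 31 and 30 in WT (-2.31, SE 0.83, adjusted p = 0.185). Col11a2, of cartilage collagen XI, had 38 and 58 reads in cKO and 27 and 9 in WT (1.31, SE 0.60, adjusted p = 0.292). These groups did not overlap, and none of these genes passed in the main edgeR fit. With no filter on low counts, Col6a6 passed (adjusted p = 0.00559, edgeR). Without cKO mouse 1 the log2 fold changes were -4.98 for Col6a6 and -3.61 for Col14a1, and without cKO mouse 2 they were -1.41 and -1.58. Itga8, the alpha chain that binds nephronectin, had 12 and 1 reads in cKO and 26 and 16 in WT (-1.69, SE 1.05, adjusted p = 0.445). Itgb6, with more reads and a small difference, is an epithelial partner of the alpha v chain and had 387 and 388 reads in cKO and 500 and 370 in WT (-0.29, SE 0.20, adjusted p = 0.492).

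Integrin chains of white blood cells were low in the bulge. Itgb2, the common beta chain of leukocyte integrins, had 14 and 2 reads in cKO and 27 and 42 in WT (-2.21, SE 0.97, adjusted p = 0.271). Itgb7, which pairs with alpha 4 or alpha E in lymphocytes, had 5 and 15 reads in cKO and 44 and 16 in WT (-1.70, SE 0.75, adjusted p = 0.274). Of the 5 tested leukocyte integrin chains 0 passed in the main edgeR fit, and 0 had an unadjusted p under 0.05 there. DESeq2 called 0 and gave no adjusted p for Itgb2 and Itgb7. With no filter on low counts, Itgb2 passed (adjusted p = 0.0492, edgeR). All 5 differences were negative, and the summed level of the leukocyte integrin chains was 5.57 and 4.04 CPM in cKO and 9.20 and 8.38 CPM in WT. Immune markers had the same sign: all 7 tested of 8 had a negative difference, 6 had an unadjusted p under 0.05, 5 were called by DESeq2 and 2 fell by edgeR, Cd74 (-1.73, adjusted p = 0.0165) and H2-Aa (-1.86, adjusted p = 0.0231), both of antigen presentation. The H2-Aa call was lost without WT mouse 1 (adjusted p = 0.0549, edgeR). The summed level of the 8 immune markers was 80.6 and 44.9 CPM in cKO and 205 and 158 CPM in WT. In bulk RNA fewer cells of a type and less RNA per cell cannot be told apart, and the part of immune cells in the integrin values was not tested.

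Among the matrix genes that bind or cut the same proteins, 5 passed in the bulge, of 39 tested in 3 lists, where 3.04% of all genes passed. The lists of collagen processing and of hemidesmosome and focal adhesion genes had 0 passing of 20 tested each in edgeR. All lists were chosen with earlier results of these data known, so these shares are not neutral counts. Mcam, a cell surface glycoprotein that binds laminin-411, rose to 110 and 141 FPKM in cKO, against 2.86 and 1.51 FPKM in WT (log2 fold change 5.64, SE 0.33, adjusted p = 0.000492, edgeR). It overlaps Gm10687 on the opposite strand, with 60 and 108 reads in cKO and 2 and 1 in WT. Cd44, a hyaluronan receptor, was at 96.8 and 81.1 FPKM in cKO and 42.0 and 39.5 FPKM in WT (0.95, SE 0.17, adjusted p = 0.0332). These were 2 of 8 tested genes in the list of other matrix receptors. Timp3, a protease inhibitor held in the matrix, was at 22.1 and 22.2 FPKM in cKO and 11.3 and 11.1 FPKM in WT (0.81, SE 0.14, adjusted p = 0.029), and the protease Adamts9 at 0.31 and 0.17 FPKM in cKO and 0.82 and 0.70 FPKM in WT (-1.85, SE 0.38, adjusted p = 0.0489). These were 2 of 14 tested proteases and inhibitors. Thbs1, thrombospondin 1, fell to 101 and 40.2 FPKM in cKO, against 461 and 262 FPKM in WT (-2.54, SE 0.46, adjusted p = 0.0332). It was the 1 gene past the threshold in edgeR among 17 tested basement membrane partners. DESeq2 called 2 basement membrane partners (also Dag1), 3 other matrix receptors (also Sdc4) and the same 2 proteases and inhibitors. Without WT mouse 2 the calls of Cd44 and Timp3 were lost (adjusted p = 0.104 and 0.0965), and without WT mouse 1 those of Thbs1 and Adamts9 (adjusted p = 0.0568 and 0.130, edgeR). The Adamts9 call was also lost without WT mouse 2 (0.123). Mcam passed in all 4 such fits.

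Markers of cells that make fibrillar collagen had few reads in the bulge, apart from Thy1. Of the 10 fibroblast and dermal papilla markers, 3 were tested. All 3 had a positive difference, with a median log2 fold change of 1.03 beside -0.01 over all genes, and 1 passed. Pdgfra had 6 and 11 reads in cKO and 11 and 10 in WT, and Pdgfrb had 3 and 6 in cKO and 5 and 7 in WT. Dcn had 20 and 47 reads in cKO and 32 and 0 in WT, so these markers were low in both genotypes. Thy1, a surface protein that is also made outside fibroblasts, rose to 33.4 and 44.8 FPKM in cKO, against 16.7 and 12.2 FPKM in WT (1.26, adjusted p = 0.0302, edgeR), a call lost without WT mouse 2 (adjusted p = 0.0966). The summed level of the list was 105 and 139 CPM in cKO and 54.6 and 38.8 CPM in WT, nearly all of it Thy1. Of 5 pericyte and muscle markers 4 were tested, 3 with a positive and 1 with a negative difference, and 0 passed in edgeR. Their summed level was 185 and 90.4 CPM in cKO and 131 and 71.3 CPM in WT. Of 5 endothelial markers 1 was tested, with a negative difference, and it did not pass. Their summed level was 0.458 and 1.97 CPM in cKO and 3.30 and 1.43 CPM in WT. The part of any of these cells in the matrix values was not tested. Of the chains of type I collagen, Col1a1 had 107 and 33 reads in cKO and 109 and 31 in WT, and Col1a2 had 241 and 104 reads in cKO and 193 and 96 in WT. Col3a1, of type III collagen, had 2 and 20 reads in cKO and 23 and 1 in WT. These groups overlapped. Col2a1 was the 1 fibrillar chain of 8 tested that passed.

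In hair germ cells no member passed in either dataset. In SMART-seq, 67 members were tested and 0 were called by edgeR, 0 had an unadjusted p under 0.05, and DESeq2 called 0. Over all 17547 genes the share called was 0%, with 179 genes (1.02%) at an unadjusted p under 0.05. WT mouse 1 stood apart, and without it 0 members were called as well. It was the highest library for 36 of the 67 tested members (53.7%), against 24.4% of all genes tested, and its Col17a1 was at 648 RPKM. The libraries labelled cKO had Col17a1 at 325 and 251 RPKM, and WT mouse 2 had 132 RPKM, so the groups overlapped. For 34 of the 67 members both female mice were above both male mice (50.7%, against 21.8% of all genes tested), and for 9 both male mice were above. The genotype groups did not overlap for 7 of the 67 members, against 24.3% of all genes. Sex and mouse number cannot be told apart here.

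Plod2 in SMART-seq was at 1.10 and 1.24 RPKM in the libraries labelled cKO and at 0.785 and 2.05 RPKM in WT (log2 fold change -0.28, adjusted p = 1, edgeR). Both libraries labelled cKO lay between the WT libraries. Col23a1 was at 3.58 and 1.09 RPKM in the libraries labelled cKO and 3.18 and 0.618 RPKM in WT (0.25, adjusted p = 1), where the 2 female mice were the high ones. Col2a1 had 0 and 1 reads in the libraries labelled cKO and 4 and 10 reads in WT and was not tested. The largest fitted differences of SMART-seq were those of Itgal (1.92), Itga9 (1.49), Col27a1 (-1.48), Col6a6 (-1.40), Lamc3 (1.39), Col15a1 (1.37), Col1a2 (-1.32), Lama1 (1.15), Itga11 (-1.08) and Itga2 (-1.03), all with an adjusted p of 1 in edgeR. Itgal is a leukocyte chain, Itga9 and Itga11 bind matrix proteins, and Lama1 and Lamc3 are laminin chains. Of these genes Itga2, a collagen receptor chain of keratinocytes, had the most reads, with 513 and 213 reads in the libraries labelled cKO and 1419 and 282 in WT, and only WT mouse 1 stood out.

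**Figure D4:**
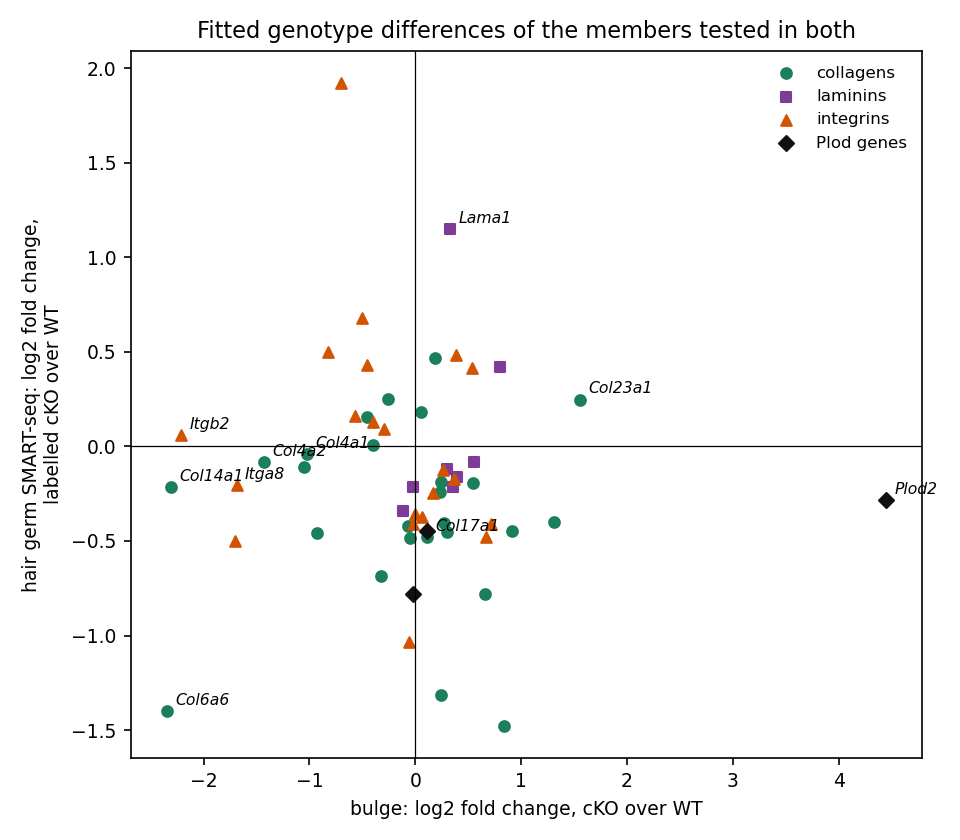
Fitted log2 fold changes of 58 members tested in both the bulge (x axis, cKO over WT) and hair germ SMART-seq (y axis, labelled cKO over WT), by family. Plod2 lies at 4.45 in the bulge and -0.28 in SMART-seq, and Col23a1 at 1.55 and 0.25; no point passed in SMART-seq.

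In hair germ SHERRY2, all 84 members entered limma on log2(normalized count + 1) and 0 were called, against 3 of 38953 genes (0.0077%); 1 member, Col9a2, had an unadjusted p under 0.05, against 4.62% of all genes. With edgeR on reads recovered from the normalized values, 0 of 82 members were called, against 0.377% of 16707 genes, and the deposited DESeq2 result of the authors calls 0 members as well. Only 17 of the 84 members were above 5 times the median of the receptor genes in every library. Among them were Col17a1, Col16a1, Col7a1, Col18a1, Col23a1, Col4a2 and Col1a1, the laminin chains Lama3, Lamb3, Lama5 and Lamb2, and the integrin chains Itgb4, Itga6, Itga3, Itgb1 and Itgb5. The other 67 members did not reach that level in every library, and 62 of the 84 members were above the 90th percentile of the receptor genes in every library. WT mouse 2, the library with the fewest reads and the highest receptor level, was the highest library for 53 of the 84 members in CPM.

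Plod2 in hair germ SHERRY2 had 25 and 21 reads in cKO and 12 and 13 in WT, or 3.04 and 1.68 RPKM in cKO and 1.47 and 4.93 RPKM in WT. Col2a1 had 71 and 58 reads in cKO and 26 and 29 in WT, or 5.03 and 2.71 RPKM in cKO and 1.86 and 6.42 RPKM in WT. Both genes overlapped between genotypes in RPKM, with the lowest and the highest value in the WT libraries, and the highest, like that of the receptor genes, in WT mouse 2. On the normalized counts that limma used, both Col2a1 cKO libraries were above both WT libraries, and Plod2 overlapped. The limma differences were 0.18 for Plod2 and 0.53 for Col2a1 on the log2(normalized count + 1) scale, which understates changes of low genes, and that of Plod2 turned to -0.15 with edgeR on recovered reads. Col23a1 was well above the receptor genes, at 19.0 and 33.0 RPKM in cKO and 23.4 and 29.6 RPKM in WT, with both WT libraries between the cKO libraries (0.37, adjusted p = 0.983, limma). Itgb4 was at 122 and 186 RPKM in cKO and 92.9 and 99.5 RPKM in WT, and Plod3 at 16.5 and 17.5 RPKM in cKO and 8.78 and 9.51 RPKM in WT. Neither gene overlapped between genotypes, and neither passed. Col4a2 was at 16.9 and 5.09 RPKM in cKO and 4.99 and 12.1 RPKM in WT, with overlapping groups, and in SMART-seq it was at 15.0 and 2.01 RPKM in the libraries labelled cKO and 7.95 and 9.71 RPKM in WT, again overlapping. In hair germ SHERRY2, 20 of the 84 members had groups that did not overlap in TMM-scaled CPM, against 32.6% of all genes.

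Whether the genotype difference itself differed between datasets was tested with an interaction of dataset and genotype in edgeR. Cell type, input RNA (200 ng in the bulge, 40 ng in hair germ) and read depth differed together between these datasets and cannot be told apart. By Xist and Ddx3y reads, the sex of the mice within each genotype differed between the datasets too. For SMART-seq the sequencing method differed as well, and Alkbh5 did not bear out the genotype labels. Between the bulge and hair germ SHERRY2, 2 of the 84 members differed, against 0.119% of 26139 genes tested, and 13 had an unadjusted p under 0.05, against 7.47% of all genes. The bulge difference was larger by 4.67 for Plod2 (SE 0.73, adjusted p = 0.00171) and by 4.50 for Col2a1 (SE 0.70, adjusted p = 0.00171) on the log2 scale, and both passed in all 8 fits that left out 1 library. In hair germ SHERRY2 both genes lay within 5 times the median of the receptor genes in all 4 libraries, and the part of that background in these differences was not tested. Col23a1 did not pass that test (1.49, SE 0.53, adjusted p = 0.476). Between the bulge and SMART-seq, 0 of 71 members were called by edgeR, against 0.0413% of 19371 genes, and 4 had an unadjusted p under 0.05, against 6.66% of all genes. Plod2 differed by 4.74 (SE 0.65, adjusted p = 0.104), a value that passed when either SMART-seq WT mouse was left out and reached an adjusted p of 0.629 without bulge WT mouse 1. Col2a1 differed by 8.0 (SE 1.24, adjusted p = 0.167) and Col23a1 by 1.31 (SE 0.98, adjusted p = 0.826). An adjusted p that misses the threshold does not show that the datasets act alike.

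The tables were made separately, so levels across them are set side by side with no test. The Col17a1 level was 753 to 1008 FPKM in the bulge, 399 to 506 RPKM in hair germ SHERRY2 and 132 to 648 RPKM in SMART-seq. Col23a1 was at 12.3 to 50.6 FPKM in the bulge and 19.0 to 33.0 RPKM in hair germ SHERRY2, but at 0.618 to 3.58 RPKM in SMART-seq. Lamb1 was at 1.12 to 2.79 FPKM in the bulge, 1.61 to 12.9 RPKM in hair germ SHERRY2 and 5.29 to 18.4 RPKM in SMART-seq. Itgb8, a partner of the alpha v chain, was at 2.29 to 3.90 FPKM in the bulge, 0.741 to 5.18 RPKM in hair germ SHERRY2 and 12.1 to 14.8 RPKM in SMART-seq.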

How the data were processed

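Members and gene lists were chosen with earlier results of these data known. For the bulge, the authors deposited a read count and an FPKM per gene and library, with exonic sizes; their FPKM followed from counts, size and summed count within 0.495%. For hair germ SMART-seq they deposited read counts. For hair germ SHERRY2 they deposited a normalized signal (read count divided by a size factor, 0.632 to 1.364), with a log2 fold change and p-values in the layout of DESeq2; 100% of values were whole reads within 0.01 once scaled, so reads were recovered. The submitters' processing notes name the builds GRCm38 and mm10 with the tools STAR, Trim Galore, FastQC, DESeq2 and featureCounts, and for the SMART-seq samples also fastp, HISAT2, SAMtools, deepTools, Subread and GRCm39. The sources used here do not give versions, annotation or strand setting.

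Counts were tested with edgeR 4.0.16 in R 4.3.3 (filterByExpr, TMM scaling, quasi-likelihood), the normalized values with limma 3.58.1 and a trend on log2(value + 1) over genes whose mean reached 1, both two-sided with genotype only and Benjamini-Hochberg adjustment at 0.05 over all genes tested. The edgeR test gives no SE, so each SE printed with it is the absolute log2 fold change divided by the square root of the F statistic. RPKM of hair germ libraries was computed from reads, bulge exonic sizes and summed reads. The alternatives were RLE scaling, DESeq2 1.42.0, no filter, another pseudocount, a replicate block and leaving out each library. Fits were tested on simulated data. Named genes were those past 0.05, the 10 largest differences in the bulge and in SMART-seq, the 10 highest levels in the bulge, a fixed set of basement membrane genes and the Plod genes; others with values were chosen after these were seen. No molecular identifiers are stated, so reads are not taken as independent molecules. The values of 1 member are not reported here.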

Additional observations from a re-analysis of the deposited data

Results flagged for a closer look

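The genotype difference of Col2a1 was larger in the bulge than in hair germ SHERRY2 by 4.50 on the log2 scale, and that of Plod2 by 4.67, in a joint edgeR fit of both datasets (adjusted p = 0.00171 each). Each was flagged because the difference between the datasets itself passed the test. Cell type, input RNA (200 ng in the bulge, 40 ng in hair germ), read depth and the sex of the mice cannot be told apart in that test. Plod2 was at 4.97 and 5.22 FPKM in bulge cKO and 0.22 and 0.19 FPKM in bulge WT, and at 3.04 and 1.68 RPKM in hair germ cKO and 1.47 and 4.93 RPKM in hair germ WT. Col2a1 was at 1.33 and 1.68 FPKM in bulge cKO and 0.05 and 0.06 FPKM in bulge WT, and at 5.03 and 2.71 RPKM in hair germ cKO and 1.86 and 6.42 RPKM in hair germ WT. Odorant and vomeronasal receptor genes had a median of 1.29 and 0.561 RPKM in the hair germ cKO libraries and 0.827 and 2.04 RPKM in the hair germ WT libraries, and the part of this background in the differences was not tested.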

How the results depend on the processing

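Of the bulge members, 3 were called, and Plod2, Col2a1 and Col23a1 were among the called genes under every alternative run. The count was 3 with RLE scaling, 8 with DESeq2 (5 higher and 3 lower), 11 without the filter (5 higher and 6 lower) and 6 with a replicate block on the mouse numbers (4 higher and 2 lower). Leaving out 1 library gave 3 to 14 calls: 14 without cKO mouse 1 (4 higher and 10 lower), 9 without cKO mouse 2 (8 higher and 1 lower), 6 without WT mouse 1 and 3 without WT mouse 2, all higher. Over all genes the share called was 3.04%, and it was 4.42% with DESeq2, 5.75% without the filter, 3.23% with the block, and 9.53%, 4.45%, 2.8% and 1.28% in these 4 fits, in which 1 mouse stands for its genotype. The cause was not tested. The block left 0 members called in both hair germ datasets. The labels give no pairing by mouse number, though in SMART-seq mouse 1 of each genotype was female and mouse 2 male. Deviations of same-numbered mice correlated at -0.0720 in the bulge, 0.230 in SMART-seq and -0.214 in hair germ SHERRY2. With numbers crossed there, an alternative chosen after seeing the data, 468 genes but 0 members were called, against 3 genes. Fits without 1 library gave 0 to 1 members with a different genotype effect in the bulge and SMART-seq, and 2 to 4 in the bulge and hair germ SHERRY2 (4 without bulge cKO mouse 1 and without hair germ cKO mouse 2).

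Among the named members, signs turned only for those that did not pass. Itga3 in the bulge (-0.0016) was 0.0145 with RLE, 0.0149 with DESeq2, 0.0055 without the filter and 0.0226 with the block. Over fits without 1 library in the bulge, Itga3 ranged from -0.26 to 0.29, Col17a1 from -0.0318 to 0.25, Itga6 from -0.019 to 0.36, Lamb3 from -0.31 to 0.0950, Plod1 from -0.26 to 0.26 and Plod3 from -0.11 to 0.37. In hair germ SHERRY2, Plod2 was -0.15 with edgeR on recovered reads; without 1 library Plod2 ranged from -0.57 (edgeR on recovered reads; -0.24 without cKO mouse 1 and -0.20 in limma without WT mouse 1) to 0.56, Col2a1 from -0.25 to 0.94 and Col23a1 from -0.53 (-0.40 in limma) to 1.15. Over the same fits in SMART-seq, Col15a1 ranged from -1.02 to 2.84, Col1a2 from -2.24 to 2.09, Col23a1 from -0.82 to 1.92 (-0.50 without WT mouse 2), Col27a1 from -3.70 to 0.57, Col6a6 from -3.63 to 3.52, Itga2 from -1.72 to 0.35, Itga9 from -0.19 to 7.13 and Plod2 from -0.80 to 0.53.

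With 2 mice per genotype every spread rests on few degrees of freedom, so members that missed the threshold are undecided. Depth limits hair germ SHERRY2 most, where 3 reads correspond to 1.97 and 1.30 CPM in the cKO libraries and 1.98 and 6.14 CPM in the WT libraries.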
